A study of Mus musculus with 65 samples.

Results

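The 6 genes described here, Vtn, Crhbp, Rgs8, Foxe3, Grrp1 and Gbp8, are less known genes of the spinal cord, and each was most abundant in 1 of the ventral progenitor domains. They are 6 of the 25239 genes measured, and they were chosen because they had stood out in comparisons between cell types on days 5 and 6 of the same libraries. Their levels in the cell types of those days are therefore given as a description with no test, and tests are given for the SAG concentration, the day and the day 4 libraries, which the choice did not use. The values are RNA sequencing reads per gene from 65 libraries in 25 groups, divided by 1 size factor per library and called normalised reads below.

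All cells came from HM1, a single line of mouse embryonic stem (ES) cells, differentiated in culture towards the spinal cord, so the replicates are independent differentiations of 1 line. Day 3 cells were neuromesodermal progenitors (NMPs), which can give rise to spinal cord or trunk mesoderm, and were collected before any SAG (3 libraries). From day 3 the medium of every culture held 100 nM retinoic acid, and SAG was added at 0, 10, 100 or 500 nM. SAG is a Smoothened agonist and takes the place of Sonic hedgehog (Shh) protein. Cells were fixed, stained for transcription factors inside the cell, selected for SOX2 and sorted on days 4, 5 and 6. The p3 and pMN progenitors were taken from cultures with 100 and 500 nM SAG, p2 from 10 and 100 nM, and p0-1 (p0 and p1 sorted together) from 0 and 10 nM. The cell type and the SAG range are thus partly confounded, and only neighbouring concentrations of 1 cell type can be compared. There were 16 libraries on day 4 and 46 on days 5 and 6, namely 11 of p3, 11 of pMN, 12 of p2 and 12 of p0-1, and a group held 1 to 3 libraries.

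In the ventral neural tube Shh spreads from the notochord and the floor plate, and progenitors read its level and duration by switching on transcription factors that repress each other. From ventral to dorsal the domains are p3, which forms V3 interneurons, pMN, which forms motor neurons, p2, and then p1 and p0. The gate for p3 cells was NKX2.2 protein without OLIG2. Of the genes described here, Vtn encodes vitronectin, a secreted glycoprotein of plasma and extracellular matrix that binds integrins and plasminogen activator inhibitor. Crhbp encodes a secreted protein that binds corticotropin-releasing hormone (CRH) and keeps it from its receptors. Rgs8 encodes a regulator of G protein signalling, which speeds the return of G alpha subunits to their inactive state. Foxe3 encodes a forkhead transcription factor best known for its need in lens development. Grrp1, also called Fam110d, encodes a glycine and arginine rich protein of the Fam110 family whose function is little known. Gbp8 encodes a guanylate-binding protein, a member of a family of large GTPases that are mostly known as interferon-induced defence proteins.

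Each library held between 7615114 and 13484815 recovered reads, and 9718 to 15963 genes had at least 1 read (median 12891). In the mm10 genome build Vtn lies on chromosome 11 at 78499120 to 78502325 on the plus strand (8 exons), Crhbp on chromosome 13 at 95431376 to 95444831 on the minus strand (7 exons) and Rgs8 on chromosome 1 at 153653037 to 153697667 on the plus strand (9 exons). Foxe3 is a single exon on chromosome 4 at 114924444 to 114926067 on the minus strand, and Grrp1 lies on the same chromosome and strand at 134251110 to 134254106 (2 exons). Gbp8 lies on chromosome 5 at 105014153 to 105053561 on the minus strand (10 exons), within a cluster of similar genes, so reads it shares with a near-identical copy are uncertain. No exon of the 6 genes overlaps an exon of another annotated gene. A single p3 library stood apart for several of the 6 genes. On day 5, p3 replicate 2 of 100 nM had 352 normalised reads of Nkx2-2 and 1424 of Nkx2-9, p3 genes within the range of the other p3 libraries, but 0.880 of Shh (p3 median 250.1), and it had 10571 genes detected. It is called the low-Shh library below. The p3 library with the next lowest Shh, replicate 2 of 500 nM on day 5 (9.54), had 472 of Vtn, 429 of Grrp1 and 0 of Crhbp. Results in p3 that rest on the low-Shh library are given with and without it. The p3 group of 100 nM on day 4 held 1 library, which had the fewest genes detected of all 65.

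Before the values, the 250 bases upstream of the annotated starts are shown, because Vtn and Crhbp peaked in the same domain and the others peaked elsewhere. The sequences are those of RefSeq on GRCm38.p6, written 5′ to 3′ on the strand of the gene, and they end at the base before the start. Capitals mark every match to 5 short motifs that were searched on both strands: a FOXA-type site (TGTTTAC or its relatives TATTTAC as well as TGTTTGC together with TATTTGC), an NKX2-type site (AAGTG), an E-box (CATATG or CAGATG), a homeodomain core (TAATTA) and a TATA box (TATAAA). A match on the opposite strand appears as its reverse complement, as for CACTT in Vtn.
Vtn, chr11:78498870-78499119, plus strand: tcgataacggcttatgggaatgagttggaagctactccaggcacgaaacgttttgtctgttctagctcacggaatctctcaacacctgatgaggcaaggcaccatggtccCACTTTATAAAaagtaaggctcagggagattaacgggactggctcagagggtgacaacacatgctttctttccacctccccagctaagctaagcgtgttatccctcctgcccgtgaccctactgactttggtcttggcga
Crhbp, chr13:95444832-95445081, minus strand: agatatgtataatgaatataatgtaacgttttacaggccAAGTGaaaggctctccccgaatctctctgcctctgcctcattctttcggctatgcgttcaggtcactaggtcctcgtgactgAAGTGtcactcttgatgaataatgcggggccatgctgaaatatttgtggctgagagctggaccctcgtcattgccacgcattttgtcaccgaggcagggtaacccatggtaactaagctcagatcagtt
Rgs8, the third of 3 annotated starts, chr1:153665423-153665672, plus strand: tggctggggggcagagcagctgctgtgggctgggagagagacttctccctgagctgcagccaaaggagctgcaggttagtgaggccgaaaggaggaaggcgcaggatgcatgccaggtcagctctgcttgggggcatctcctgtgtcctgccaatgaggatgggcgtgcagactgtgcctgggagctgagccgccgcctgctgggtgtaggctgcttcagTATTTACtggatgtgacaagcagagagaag
Foxe3, chr4:114926068-114926317, minus strand: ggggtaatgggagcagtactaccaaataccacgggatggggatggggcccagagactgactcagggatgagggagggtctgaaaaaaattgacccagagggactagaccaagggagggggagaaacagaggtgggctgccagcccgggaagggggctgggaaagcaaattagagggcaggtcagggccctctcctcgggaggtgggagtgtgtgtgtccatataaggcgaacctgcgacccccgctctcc
Grrp1, chr4:134254107-134254356, minus strand: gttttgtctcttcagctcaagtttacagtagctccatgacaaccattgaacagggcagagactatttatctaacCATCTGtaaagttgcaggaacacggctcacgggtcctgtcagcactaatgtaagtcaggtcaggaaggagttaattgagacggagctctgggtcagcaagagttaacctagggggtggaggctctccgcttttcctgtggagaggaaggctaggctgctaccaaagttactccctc

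The Vtn promoter held AAGTG on the opposite strand 140 to 136 bases before the start, overlapping a TATA box read on both strands between 137 and 130 bases before it. Crhbp held AAGTG at 211 to 207 and at 129 to 125 bases. AAGTG is short, and 40.7% of the 32851 annotated promoters of this length held it, while 12.4% held TATAAA. Neither the Vtn nor the Crhbp window held a FOXA-type site, which 11.9% of all promoters did. The sequences cover 5 of the 6 genes, since Gbp8 was not matched. The single FOXA-type match lay in the third Rgs8 promoter (TATTTAC, 30 to 24 bases before the start), and the other 2 Rgs8 windows held none of the 5 motifs. Grrp1 held CAGATG on the opposite strand at 176 to 171 bases, a motif class found in 17.3% of promoters. Foxe3 held none of the motifs, and TAATTA, found in 4.84% of all promoters, was in none of the windows. These matches describe letters and show no binding.

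Vtn was the most abundant of the 6 genes in p3. Its p3 mean on days 5 and 6 was 1371 ± 1363 normalised reads (SD, n = 11), with a median of 802, and p3 held 93.9% of the sum of the 4 cell type means. On day 5 the replicates had 802, 1.76 and 1158 normalised reads at 100 nM SAG and 689.5, 472 and 332 at 500 nM. On day 6 they had 2171, 2355 and 2023 at 100 nM and 391 and 4686 at 500 nM. Apart from the library with 1.76, the p3 libraries lay between 332 and 4686, and the highest library of the other cell types, in p2, had 295. Without that library the p3 mean was 1508 ± 1355 (SD, n = 10). As these are bulk libraries, fewer cells with the transcript and less transcript per cell cannot be told apart.

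Outside p3, Vtn was in a minority of libraries and was at 0 in the rest. On day 6 pMN had 0, 198 and 54.0 normalised reads at 100 nM and 0 and 221 at 500 nM. Single libraries of p2 at 100 nM on day 6 (295), of p0-1 at 10 nM on day 5 (199) and of p0-1 at 10 nM on day 6 (66.0) also had it. In those p2 and p0-1 libraries the p3 genes Nkx2-2 and Nkx2-9 and the floor plate genes Foxa2 and Shh were all at 0. The pMN library with 221 reads of Vtn had 704 of Nkx2-9, 368 of Foxa2 and 25.3 of Shh, whereas both other pMN libraries with Vtn had neither Foxa2 nor Shh. Vtn thus also occurred in libraries where none of those ventral genes was detected.

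Crhbp shared the domain of Vtn at a lower level. It had 247 ± 327 normalised reads in p3 (SD, n = 11, median 106), which is 89.8% of its summed cell type means, and 271 ± 334 (SD, n = 10) without the low-Shh library. On day 5 the p3 values were 187, 0 and 0 at 100 nM and 80.5, 0 and 106 at 500 nM. On day 6 they were 239, 334 and 782 at 100 nM and 34.4 and 953 at 500 nM. The day 5 libraries were thus either at 0 or between 80.5 and 187, while the 5 libraries of day 6 all had the transcript. It was at 0 in all 11 pMN libraries. The only other libraries above 3 reads were 1 of p2 at 100 nM (128) and a pair of p0-1 at 0 nM (117 and 90.2), all of day 6, and Nkx2-2, Nkx2-9, Foxa2 and Shh were at 0 in each of them.

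Genes of the floor plate, the ventral midline next to p3, were also present in the p3 libraries. To check for floor plate cells among sorted p3 cells, the authors set up separate floor plate cultures. Compared with these, they reported that spinal cord cultures expressed floor plate markers only a little, also on day 6. On day 6, p3 replicate 3 of 500 nM had the most Vtn (4686), the most Crhbp (953), the most Shh (1335) and the most Foxa2 (3100) of the 11 p3 libraries. The summed level of 6 floor plate genes (Shh, Foxa2, Foxa1, Ntn1, Foxj1 and Spon1) ran from 3333 to 21885 in p3 and reached at most 3733 in the other cell types of days 5 and 6. Ntn1 was the largest part of this sum in every p3 library and was not restricted to p3. Its means on those days were 4898 in p3, 1168 in pMN, 1520 in p2 and 1351 in p0-1. On the log2 scale Vtn and Shh had a Pearson r of 0.80 over the 11 p3 libraries (Spearman rho 0.47), and 0.45 (rho 0.30) without the low-Shh library. Vtn and Crhbp had an r of 0.64 (rho 0.75) over the same libraries. These are descriptions across libraries that mix both days and both SAG concentrations, and the part of floor plate cells in the levels of Vtn and Crhbp was not tested.

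**Figure D1:**
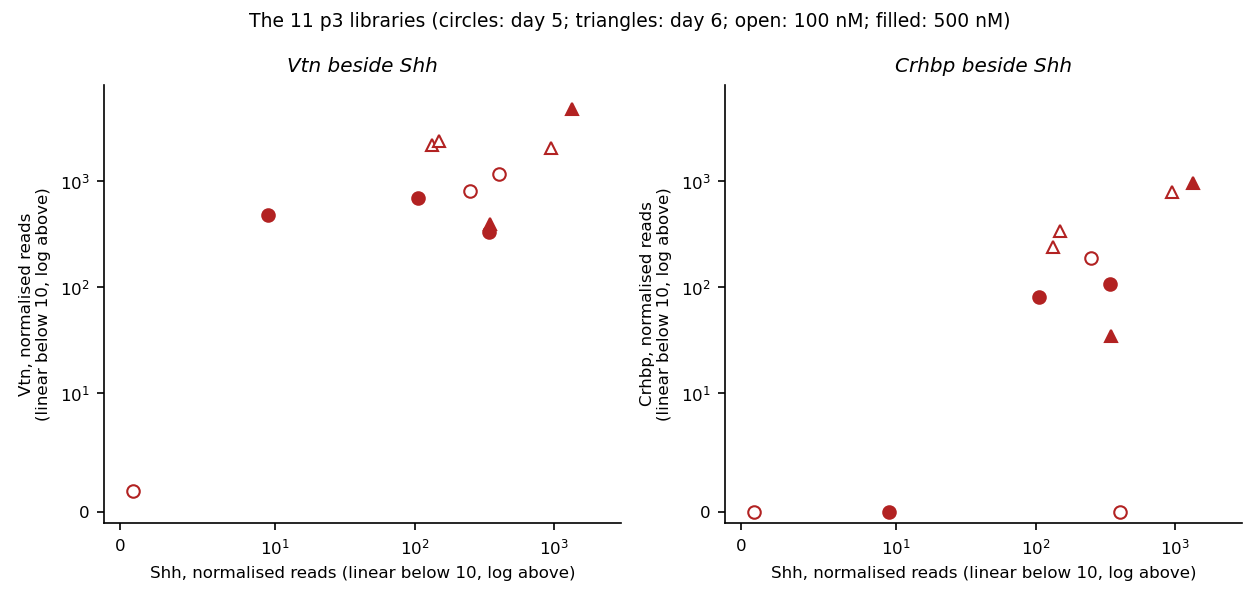
Normalised reads of Vtn (left) and Crhbp (right) against those of Shh in the 11 p3 libraries of days 5 and 6, on axes that are linear below 10 and logarithmic above; circles are day 5, triangles day 6, open symbols 100 nM and filled symbols 500 nM SAG. The day 6 library with the most Shh (1335) also has the most Vtn (4686) and Crhbp (953), and the library with 0.880 reads of Shh has 1.76 of Vtn and 0 of Crhbp.

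Grrp1 was the most abundant of the 6 genes in pMN and was nearly missing from p0-1. Its mean on days 5 and 6 was 1004 ± 301 normalised reads in pMN and 428 ± 283 in p3 (SD, n = 11 each), and 256 ± 192 in p2 and 11.8 ± 28.7 in p0-1 (SD, n = 12 each). In pMN the day 5 libraries had 539.8, 781 and 1144 normalised reads at 100 nM and 1072, 1215 and 1319 at 500 nM. The day 6 libraries of pMN had 809, 700.2 and 748 at 100 nM and 1242 and 1475 at 500 nM. No pMN library was low, and their coefficient of variation, 30.0%, was the smallest of any gene in its highest cell type. In p3 the values were 377, 0 and 1030 at 100 nM and 384, 429 and 341 at 500 nM on day 5. On day 6 p3 had 427, 346 and 831 at 100 nM and 387 and 161 at 500 nM. The 0 belonged to the low-Shh library, and the p3 mean without it was 471 ± 258 (SD, n = 10). In p0-1 all 6 libraries of day 5 were at 0, and on day 6 the values were 0, 0 and 8.11 at 0 nM and 96.3, 0 and 37.6 at 10 nM. Grrp1 was thus present across p3, pMN and p2 and low or at 0 in p0-1.

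Rgs8 was highest in pMN and reached into p2. It had 257 ± 176 normalised reads in pMN and 6.84 ± 22.7 in p3 (SD, n = 11 each), with 166 ± 138 in p2 and 39.6 ± 56.8 in p0-1 (SD, n = 12 each). The pMN libraries of day 5 had 144, 397 and 224 at 100 nM and 179.6, 452.5 and 105 at 500 nM, and those of day 6 had 142.5, 61.2 and 127.5 at 100 nM and 383 and 608 at 500 nM. All 11 thus had the transcript, and their range ran from 61.2 to 608. The p2 libraries of day 5 had 336, 399.5 and 0 at 10 nM and 0, 0 and 79.7 at 100 nM, whereas the 6 of day 6 lay between 132.5 and 305. A single p3 library had reads of Rgs8, replicate 1 at 500 nM on day 5 with 75.3. pMN held 54.8% and p2 35.3% of the summed cell type means, so neither domain held it alone. The summed level of 10 neuron genes, none of which was missing throughout a cell type, ran from 1779 to 9813 in pMN, 901 to 6250 in p2, 684 to 5690 in p3 and 352 to 2905 in p0-1 on days 5 and 6, and the part of differentiating cells in the level of Rgs8 was not tested.

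Gbp8 was the p2 gene of the 6 and extended dorsally. Its mean on days 5 and 6 was 858 ± 531 normalised reads in p2 and 257 ± 254 in p0-1 (SD, n = 12 each), and 66.3 ± 114 in pMN and 1.92 ± 6.38 in p3 (SD, n = 11 each). On day 5 the p2 libraries had 1011, 812 and 703 at 10 nM and 621, 878 and 0 at 100 nM. On day 6 they had 1538, 2130 and 670.1 at 10 nM and 579.8, 661.5 and 696 at 100 nM. In p2 11 of 12 libraries were thus at 579.8 or more and 1 was at 0. The p0-1 libraries had 147.5, 0 and 218 at 0 nM and 17.4, 60.0 and 242 at 10 nM on day 5. On day 6 p0-1 had 213, 501 and 217 at 0 nM and 434, 127 and 907 at 10 nM. In pMN 4 of 11 libraries had Gbp8, from 71.4 to 355, and in p3 a single library had it, with 21.2.

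Foxe3 was the most dorsal of the 6. It had 502 ± 238 normalised reads in p0-1 and 221 ± 158 in p2 (SD, n = 12 each), against 45.4 ± 35.1 in pMN and 13.2 ± 43.8 in p3 (SD, n = 11 each). In p0-1 the day 5 libraries had 576, 902.5 and 658 at 0 nM and 611, 443 and 803 at 10 nM, and the day 6 libraries had 249, 414.5 and 375 at 0 nM and 183, 165 and 648 at 10 nM. The p2 libraries had 532, 289 and 393.5 at 10 nM and 128, 165 and 188 at 100 nM on day 5, and 162, 20.9 and 420.5 at 10 nM and 57.3, 72.6 and 226 at 100 nM on day 6. All 12 libraries of each cell type had the transcript. The whole of the p3 mean came from the low-Shh library, which had 145 normalised reads of Foxe3, and the other 10 p3 libraries were at 0.

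**Figure D2:**
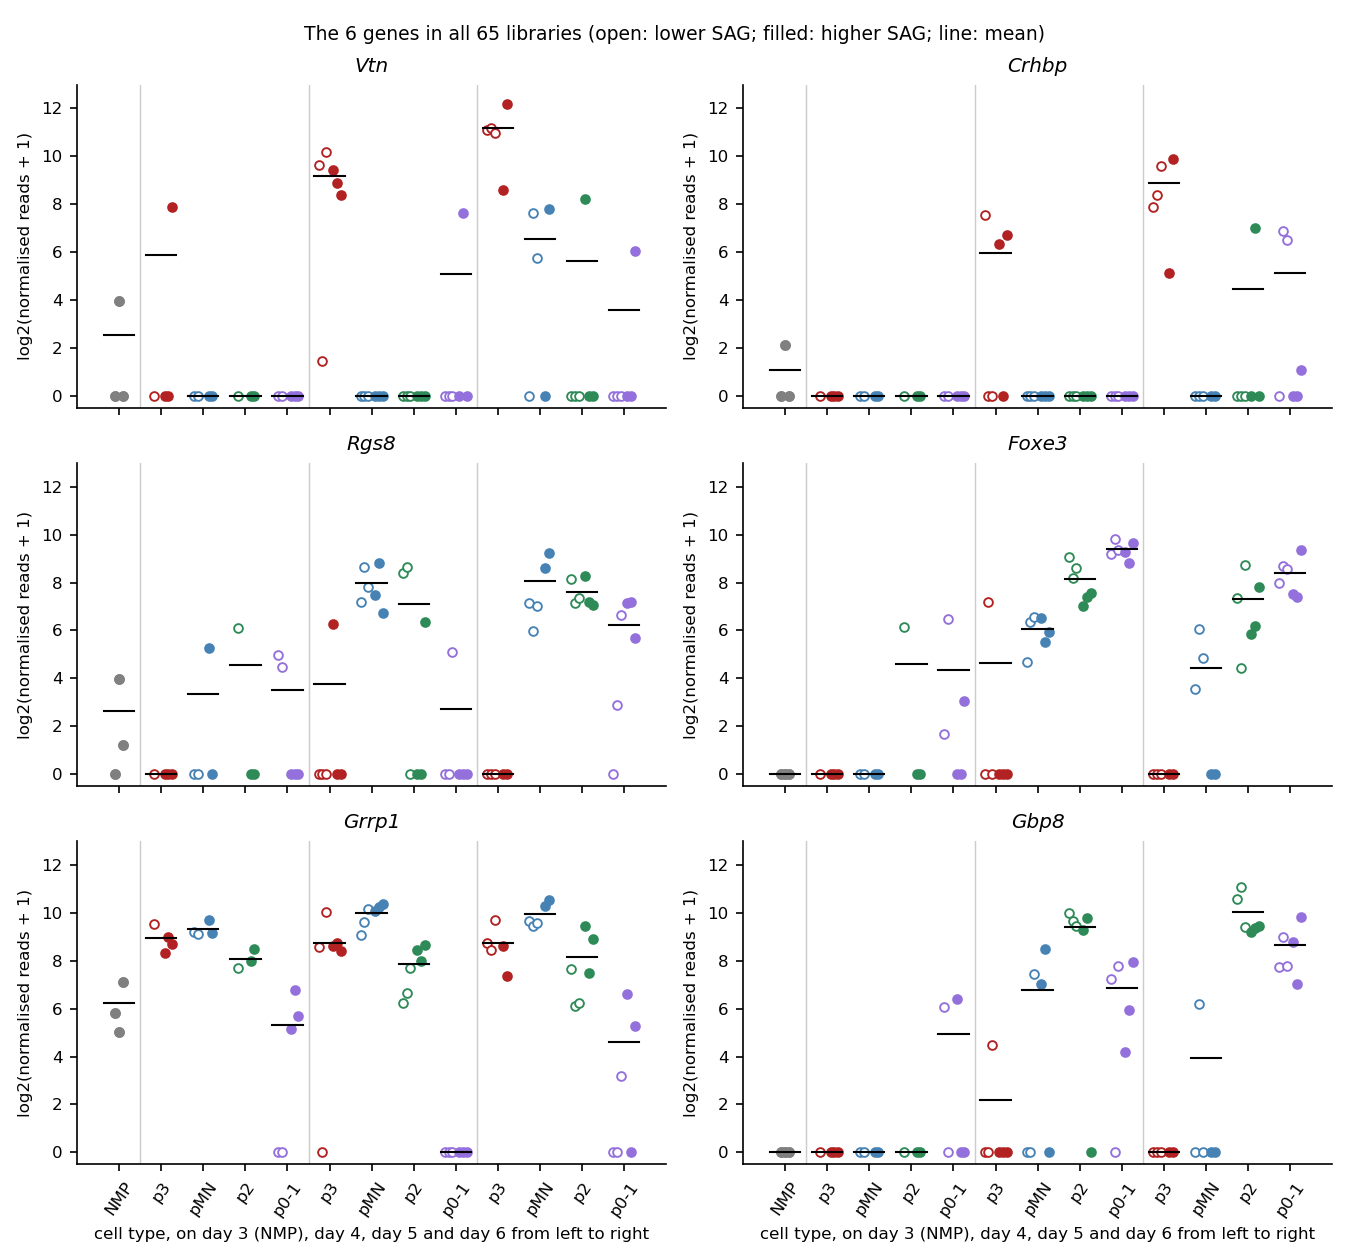
log2(normalised reads + 1) of each of the 6 genes in all 65 libraries, grouped by cell type from NMP on day 3 to day 4, day 5 and day 6; open circles are the lower and filled circles the higher SAG concentration of a cell type, and a line marks the mean of the normalised reads. Most genes are either at 0 or well above it, and Grrp1 alone is present in NMP and on day 4 in most libraries.

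Set in order, few neighbouring domains differed by more than the spread of their libraries. The difference between the means of neighbours in the order exceeded the larger of both SDs for Foxe3 from p0-1 to p2 (2.27-fold) and from p2 to pMN (4.87-fold), for Grrp1 from pMN to p3 (2.34-fold) and from p2 to p0-1 (21.6-fold) and for Gbp8 from p2 to p0-1 (3.34-fold). It did not for Vtn (p3 was 31.9-fold above pMN, its SD as large as its mean), for Crhbp or for Rgs8. Without the low-Shh library it did for Vtn, with 1508 ± 1355 in p3 (SD, n = 10) against 43.0 ± 84.0 in pMN (SD, n = 11). It then also did for Foxe3 from pMN (45.4 ± 35.1, SD, n = 11) to p3 (0 in all 10 libraries). In every neighbouring pair at least 1 library of the lower cell type reached the range of the higher. Without the low-Shh library this no longer held for Vtn, whose lowest p3 library (332) lay above the highest of pMN (221). Compared between genes per kilobase of exon, the highest cell type means were 819 normalised reads per kb for Grrp1 (1.226 kb of exon), 786 for Vtn (1.745 kb), 349 for Gbp8 (2.459 kb), 309 for Foxe3 (1.624 kb), 147 for Crhbp (1.681 kb) and 42.0 for Rgs8 (6.112 kb).

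The 6 genes appeared at different times. A library was counted as having a gene above 3 recovered reads, and a gene as present in a cell type from the first day on which more than 50% of its libraries had it. By that definition Grrp1 was the only one present before sorting by domain began, with 55.4, 31.5 and 139 normalised reads in the 3 NMP libraries. If any read counted, Rgs8 was also present in NMP (14.6 and 1.36 normalised reads in 2 of 3 libraries) and Foxe3 in p0-1 from day 4 (3 of 5 libraries). Vtn (p3), Rgs8 (pMN), Foxe3 (pMN, p2 and p0-1) and Gbp8 (p2 and p0-1) were present from day 5. Crhbp in p3, Rgs8 in p2 and p0-1 and Vtn in pMN were present from day 6 only, and Crhbp was in 0 of 4 p3 libraries on day 4, 3 of 6 on day 5 and 5 of 5 on day 6. Before day 5 single libraries already had some of them: Vtn reached 235 in 1 of 4 p3 libraries of day 4, and Foxe3 reached 69.4 in 1 of 3 p2 and 87.7 in 1 of 5 p0-1 libraries of day 4. Gbp8 was in 2 of 5 p0-1 libraries of day 4 (65.7 at 0 nM and 82.9 at 10 nM) and in 0 of 3 of p2, the domain where it was later highest. Grrp1 in p0-1 went from 3 of 5 libraries on day 4 to 0 of 6 on day 5 and 3 of 6 on day 6.

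**Figure D3:**
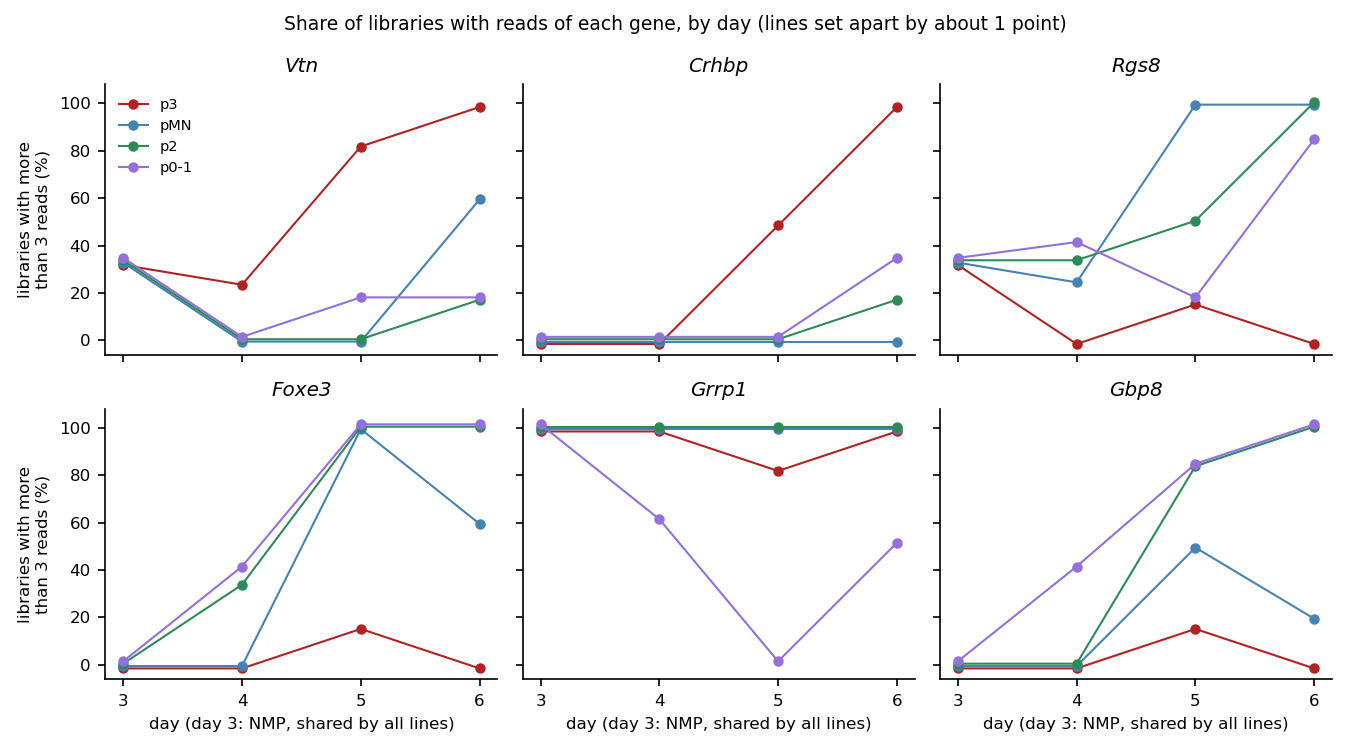
Percentage of libraries with more than 3 reads of each gene on days 3 to 6, with 1 line for each cell type; the 3 NMP libraries of day 3 are shared by all lines, and lines are set about 1 point apart where they would coincide. Crhbp in p3 goes from 0 of 4 libraries on day 4 to 5 of 5 on day 6, and Grrp1 in p0-1 drops to 0 of 6 on day 5.

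On day 4, before most of the 6 genes were present, Grrp1 already differed between domains. It had 733 normalised reads in the single p3 library of 100 nM and 321, 512 and 418 at 500 nM, and pMN had 591 and 552.5 at 100 nM and 821 and 567 at 500 nM. In p2 it had 208 at 10 nM and 249.7 and 354.5 at 100 nM, and in p0-1 0 and 0 at 0 nM and 34.6, 109 and 50.6 at 10 nM. Every library of p3, pMN and p2 thus lay above every p0-1 library. A difference counted as called where it was over 2-fold and its limma p, computed on log2(value + 1) and adjusted over 13964 genes by the Benjamini-Hochberg method, was below 0.01. On that log2 scale Grrp1 in p3 exceeded its p0-1 level by 6.16 (SE 1.20, limma adjusted p = 0.000176), and in pMN it did so by 6.35 (SE 1.10, limma adjusted p = 0.000835). Both comparisons share the p0-1 libraries, and they were 2 of the 22 pairs of a gene and a comparison of day 4 that could be tested. In the same comparisons 6.02% (p3 against p0-1) and 0.1% (pMN against p0-1) of all genes were called. Of the 840 genes called between p3 and p0-1, only 35 were higher in p3, as Grrp1 was, and 805 were lower. Between pMN and p0-1, 8 were higher and 6 lower in pMN. Against p2 the percentages were 4.3% for p3, 0.00716% for pMN and 0.0286% for p0-1, and for p3 against pMN 4.7%, with none of the 6 genes called in those. Here too most genes called in p3 were lower, 593 against 8 higher beside p2 and 627 against 29 higher beside pMN. The difference of Grrp1 between p2 and p0-1, 5.03 (SE 1.24, limma adjusted p = 0.443), did not pass.

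Both calls of Grrp1 on day 4 depended on a library. Without replicate 3 of p3 at 100 nM, the only p3 library of that concentration, the difference between p3 and p0-1 was 5.74 and did not pass, and without replicate 2 of pMN at 500 nM that between pMN and p0-1 was 6.22 and did not pass. The pMN call was also lost when only the compared groups were fitted, with the same log2 change. That p3 library had 9718 genes detected, and the part of this in the p3 comparisons of day 4 was not tested.

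Against the NMPs of day 3, none of the 10 pairs passed, 5 had an unadjusted p below 0.05 and the lowest limma adjusted p was 0.108 (edgeR called 0 and DESeq2 5). DESeq2 called many unchanged genes when tested on simulated counts, so its counts here and below are not used as results. Grrp1 was 75.2 ± 56.2 normalised reads in NMP (SD, n = 3), and its log2 differences from NMP were 3.11 in p3, 3.30 in pMN, 1.98 in p2 and -3.05 in p0-1 (SE 1.20 to 1.37). All 4 comparisons share the NMP libraries. Over all genes 8.43% were called in p3, 2.53% in pMN, 1.53% in p2 and 2.16% in p0-1.

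From day 5 to day 6 the levels of Vtn and Crhbp in p3 were higher and those of Foxe3 lower, but no change of the 6 genes passed the limma threshold. Vtn in p3 was 576 ± 401 normalised reads on day 5 (SD, n = 6) and 2325 ± 1535 on day 6 (SD, n = 5). Crhbp in p3 was 62.1 ± 76.5 (SD, n = 6) and 468 ± 385 (SD, n = 5). The day 6 libraries of both genes at 100 nM lay above all those of day 5, while at 500 nM the replicate with 391 of Vtn and 34.4 of Crhbp lay within them. Of the 22 pairs tested, 0 were called, 7 had an unadjusted p below 0.05 and the lowest limma adjusted p was 0.0775, for Crhbp in p3 (log2 change 4.64, SE 1.17). The same 22 pairs gave 0 calls with edgeR and 5 with DESeq2. The percentages of all genes called were 0.0215% in p3, 0.0286% in pMN, 0.15% in p2 and 0.0645% in p0-1, so a count of 0 of 22 does not set the 6 genes apart.

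The limma SEs of these genes were large, from 0.93 to 1.60 on the log2 scale, and most of the genes were at 0 in some libraries, so each pair was also compared by a two-sided exact permutation test that exchanged libraries of the 2 days within each SAG concentration (smallest possible p of 0.005). An exact p below 0.05 was found in 5 of 22 pairs. Vtn was higher on day 6 in p3 (log2 difference 2.75, exact permutation p = 0.03), and without the low-Shh library the difference was 1.34 (exact permutation p = 0.04). Foxe3 was lower on day 6 in pMN (-3.52, exact permutation p = 0.015), where its mean went from 65.9 ± 27.5 (SD) to 20.8 ± 27.4 (SD), and in p0-1 (-1.10, exact permutation p = 0.02), where it went from 666 ± 165 (SD) to 339 ± 182 (SD). In p0-1 Rgs8 was higher on day 6 (4.07, exact permutation p = 0.035), with 1 of 6 libraries having it on day 5 and 5 of 6 on day 6, and so was Gbp8 (2.84, exact permutation p = 0.045), from 114 ± 104 (SD) to 400 ± 287 (SD). Over all genes the percentages with an exact p below 0.05 were 5.94% in p3, 6.63% in pMN, 8.42% in p2 and 6.77% in p0-1. None of these exact values passed an adjustment over all genes. Crhbp in p3 had an exact permutation p of 0.085, and of 0.1 without the low-Shh library (log2 difference 4.01).

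The SAG concentration made no difference that passed the limma threshold in any of 22 pairs. A single pair (1 of 22) had an unadjusted p below 0.05, and the lowest limma adjusted p was 0.645 (edgeR called 0 and DESeq2 4). The percentages of all genes called were 0.0286% in p3, 0 in pMN, 0.0358% in p2 and 0.0143% in p0-1. In the two-sided exact permutation test, which exchanged libraries of both concentrations within a day (smallest possible p of 0.005), 3 of 22 pairs had p below 0.05. The percentages over all genes were 4.59% in p3, 4.92% in pMN, 5.41% in p2 and 4.25% in p0-1. The 3 pairs were Grrp1 in pMN and in p2 and Gbp8 in p2, and none passed an adjustment over all genes (adjusted exact permutation p = 0.898, 0.727 and 0.794).

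The mean of Grrp1 was larger at the higher SAG concentration within pMN and within p2, by unadjusted exact tests. In pMN its mean over days 5 and 6 was 787 ± 199 normalised reads at 100 nM (SD, n = 6) and 1265 ± 148 at 500 nM (SD, n = 5), a log2 difference of 0.73 (exact permutation p = 0.01). A single library of 100 nM, with 1144, lay above the lowest of 500 nM, with 1072. In p2 the mean was 120 ± 64.6 at 10 nM (SD, n = 6) and 392 ± 181 at 100 nM (SD, n = 6), a log2 difference of 1.73 (exact permutation p = 0.01). On day 5 the p2 groups did not overlap (73.9, 98.7 and 206 against 352, 249 and 403), and on day 6 they did (199, 68.5 and 74.3 against 689.5, 179.8 and 481). In p0-1 Grrp1 was at 1.35 ± 3.31 at 0 nM and 22.3 ± 39.2 at 10 nM (SD, n = 6 each, exact permutation p = 0.4). In p3 the order of the means was reversed, with 502 ± 370 at 100 nM (SD, n = 6) and 340 ± 105 at 500 nM (SD, n = 5). The log2 difference in p3 with all libraries was 0.70 (exact permutation p = 0.935), opposite in direction to these means. Without the low-Shh library, which was at 0, it was -0.85 (exact permutation p = 0.1).

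Gbp8 in p2 was higher at the lower concentration, with 1144 ± 579 normalised reads at 10 nM (SD, n = 6) against 573 ± 299 at 100 nM (SD, n = 6). The log2 difference was -2.18 (exact permutation p = 0.045) and moved to -0.59 without replicate 3 of 100 nM on day 5, the library at 0. Foxe3 in p2 had the same order, 303 ± 187 at 10 nM against 139.5 ± 66.2 at 100 nM (SD, n = 6 each), with a log2 difference of -0.76 (exact permutation p = 0.31). Its day 5 groups did not overlap (532, 289 and 393.5 against 128, 165 and 188). Vtn and Crhbp in p3 had means of 1418 ± 924 and 257 ± 289 at 100 nM (SD, n = 6) and 1314 ± 1890 and 235 ± 404 at 500 nM (SD, n = 5), with exact permutation p values of 0.855 and 0.835. Their log2 differences, 0.56 and 0.37, changed sign to -0.85 and -0.26 without the low-Shh library (exact permutation p = 0.23 and 0.9). Rgs8 in pMN had 183 ± 117 at 100 nM (SD, n = 6) and 346 ± 204 at 500 nM (SD, n = 5), a log2 difference of 1.01 (exact permutation p = 0.16). Whether an effect of SAG differed between days, or an effect of the day between cell types, was tested in 58 pairs, and 0 passed (lowest limma adjusted p of 0.581), although 10 had an unadjusted p below 0.05.

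**Figure D4:**
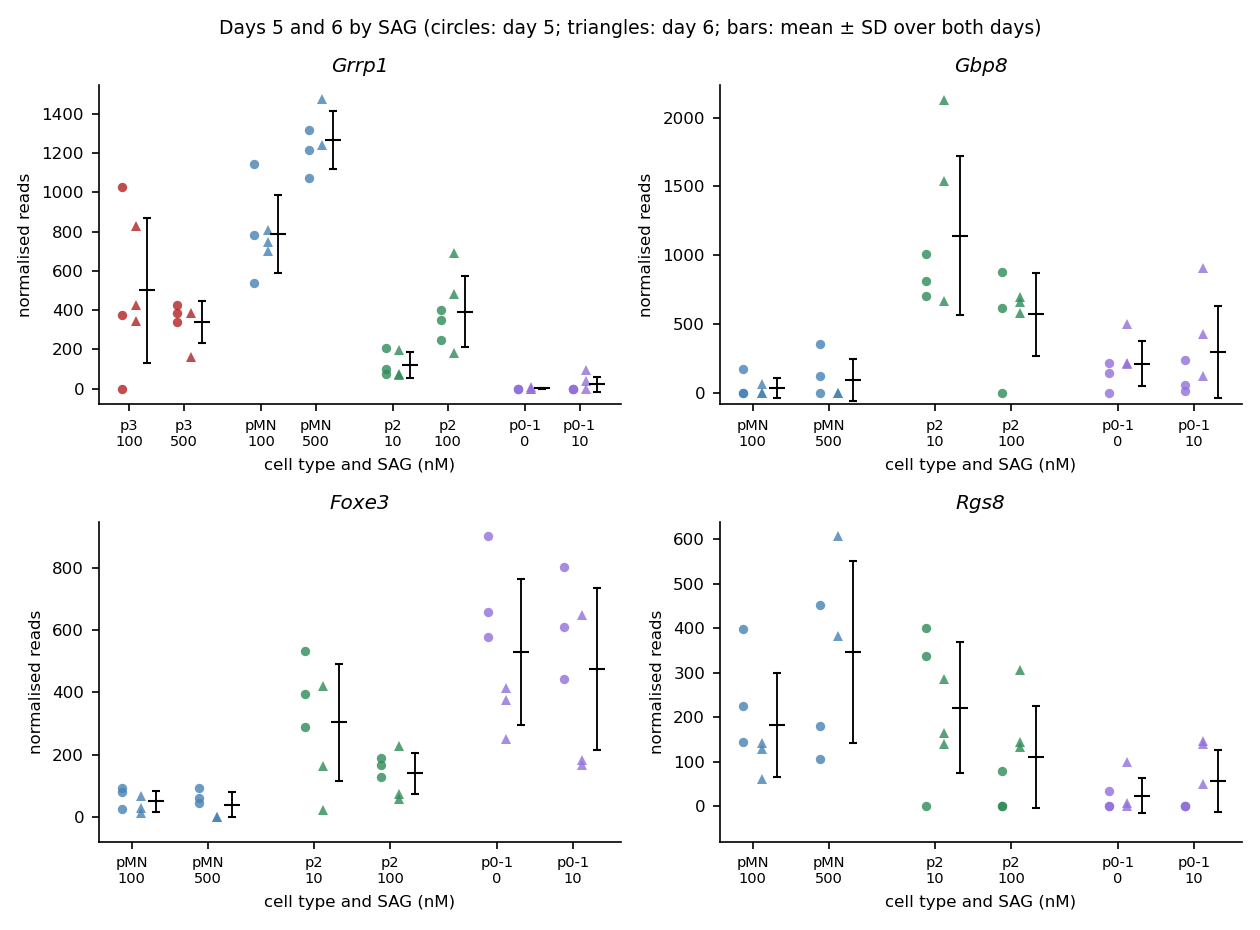
Normalised reads of Grrp1, Gbp8, Foxe3 and Rgs8 on days 5 (circles) and 6 (triangles) by cell type and SAG concentration in nM; the horizontal mark and bars are the mean ± SD over both days. Grrp1 is higher at 500 than at 100 nM in pMN (1265 against 787) and at 100 than at 10 nM in p2 (392 against 120), and Gbp8 in p2 is higher at 10 nM (1144 against 573).

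Some libraries lacked a gene that others of the same cell type had. Losses were counted only in the cell types whose mean was at least 25% of the highest. Cell types below that share also had losses on day 6, such as Foxe3 at 0 in both pMN libraries of 500 nM. In the cell types counted, 10 of 127 pairs of a gene and a library (7.87%) were at or below 3 reads, 10 of 66 on day 5 and 0 of 61 on day 6. They were 3 of 11 p3 libraries for Crhbp, 3 of 12 p2 libraries for Rgs8, 1 of 11 p3 libraries each for Vtn and Grrp1, and 1 of 12 libraries of p2 and of p0-1 for Gbp8. Crhbp in p3 and Rgs8 in p2 were each in 3 of 6 libraries on day 5 and counted as present from day 6 only. For both, a loss in single libraries and a later onset cannot be told apart. Foxe3 in p2 and p0-1, Grrp1 in pMN and p2 and Rgs8 in pMN were never lost. In the highest cell type alone 5 of 68 pairs (7.35%) were lost, 3 of them for Crhbp in p3. The share was 1.40% over the 6632 genes whose highest cell type mean lay in the range of the 6 genes. It was 3.34% over the 10849 genes whose highest cell type mean was at least 100. The count over all cell types used (10 of 127) has no such background. For those 6632 genes the share was 1.23% on day 5 and 1.58% on day 6. The 6 genes were chosen for large differences between cell types, so the comparison of these shares is a description.

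Genes detected in the libraries that lost a gene were level with the others in p2 and fewer in p3 and p0-1. The p2 library without Gbp8 had 12642 genes detected against a median of 12634 in the p2 libraries with it, and those without Rgs8 had a median of 12772 against 12634. The p3 libraries without Crhbp had a median of 12193 against 12784, and the p0-1 library without Gbp8 had 11686 against 12772. The low-Shh library had 10571 genes detected against a p3 median of 12508 with Vtn, and the part of this in the losses was not tested. It alone accounted for 3 of the 10 losses (7 without it). Different libraries lost different genes otherwise: replicate 3 of p3 at 100 nM on day 5 was at 0 for Crhbp with 1158 reads of Vtn and 1030 of Grrp1, and the p2 library without Gbp8 had 79.7 of Rgs8 and 188 of Foxe3. The lowest value above 3 reads beside a loss was 579.8 for Gbp8 and 79.7 for Rgs8 in p2, 34.4 for Crhbp in p3 and 17.4 for Gbp8 in p0-1.

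Most listed genes of the same pathways and families were not called between the domains. Lists of partners and relatives, chosen with earlier results of these data known, were compared between the cell types of days 5 and 6. The 6 comparisons called 0.695% (p3 against pMN), 1.27% (p3 against p2), 1.43% (p3 against p0-1), 0.107% (pMN against p2), 0.96% (pMN against p0-1) and 0.322% (p2 against p0-1) of all genes. Of 12 tested vitronectin receptors and partners, 2 were called over the 6 comparisons. In p3, 1 was higher than in pMN, 2 than in p2 and 1 than in p0-1. Col4a1, a collagen of basement membranes, was higher in p3, with log2 differences of 1.69 from pMN, 1.65 from p2 and 1.74 from p0-1 (SE 0.32 to 0.33, limma adjusted p = 0.00121, 0.000745 and 0.000233). Plat, the tissue plasminogen activator, was higher in p3 than in p2 by 1.21 (SE 0.25, limma adjusted p = 0.00166). None of the integrin chains of the list was called. The median log2 change of the list in p3 was 0.51 against pMN, 0.84 against p2 and 0.84 against p0-1.

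Of 22 tested forkhead genes, 5 were called over the 6 comparisons. In each comparison of p3, 2 were higher and 1 was lower in p3, and 1 of 21 was called between pMN and p0-1. For this list and the vitronectin list, the shares called in the p3 comparisons were above those of all genes. As the lists were chosen with earlier results known, this is a description. Foxa1 and Foxa2, which mark the floor plate, were higher in p3 than in each other cell type, by log2 changes of 4.65 to 4.94 and of 5.55 to 8.90. The authors reported Foxa2 in p3 cells as well. Foxn4, a gene of p2 progenitors, was lower in p3 than in p2 (log2 change -5.01, SE 1.02, limma adjusted p = 0.00166), and Foxd2 was lower in p3 than in p0-1 (-3.45, SE 0.84, limma adjusted p = 0.00924). The Foxd2 means had the order of Foxe3 at a much lower level, with 30.7 ± 24.3 normalised reads in p0-1 and 21.0 ± 28.9 in p2 (SD, n = 12 each), and 10.95 ± 16.5 in pMN and 6.09 ± 13.6 in p3 (SD, n = 11 each). Foxb1 was lower in p3 than in pMN (-1.34) and higher in pMN than in p0-1 (1.08). The other Foxe gene, Foxe1, averaged 43.6 normalised reads in p3 and 3.70 in p0-1, the opposite order to Foxe3, without a call. No gene was called among the 17 tested regulators of G protein signalling and G alpha subunits, the 9 tested guanylate-binding and interferon-induced genes or the 2 tested Fam110 genes, and at an unadjusted p below 0.05 these lists had 0 to 6, 0 to 2 and 0 genes in each comparison. Of 6 genes of the CRH system, Crhr2, a receptor of CRH and urocortins, was the only one abundant enough to test, with 60.3 ± 90.4 normalised reads in p3 (SD, n = 11, 4 libraries) and at most 4.70 elsewhere, and it was not called (unadjusted p below 0.05 in each of its comparisons with p3). Rgs16 had 136 ± 119 in pMN (SD, n = 11) and was present in all 11 pMN libraries, as Rgs8 was, while Rgs2 had 132 ± 183 in p3 (SD, n = 11) and was at 0 in all of pMN. Fam110a, a relative of Grrp1, had 381 ± 325 in p3, 553 ± 331 in pMN, 423 ± 251 in p2 and 287 ± 171 in p0-1 (SD, n = 11, 11, 12 and 12), without the near absence from p0-1 that Grrp1 had.

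Neighbouring genes on the chromosome mostly did not share the pattern. The nearest gene to Gbp8, Gbp9 at 22.9 kb, was also highest in p2. Its pMN mean lay above its p0-1 mean, unlike Gbp8, but only 2 of 11 pMN libraries had Gbp9 (median 0, highest 322). Gbp9 had 172 ± 221 normalised reads in p2 and 25.3 ± 40.4 in p0-1 (SD, n = 12 each), and 37.0 ± 97.9 in pMN and 3.98 ± 13.2 in p3 (SD, n = 11 each). Gbp9 was in 7 of 12 p2 libraries and 4 of 12 p0-1 libraries, and all of these also had Gbp8, whereas the 2 pMN libraries and the p3 library with Gbp9 had no Gbp8. Gbp7 was at 0 in all 12 p2 libraries. Beside Foxe3, the noncoding gene Foxd2os at 3.33 kb had 110 ± 122 in p3 and 163 ± 130 in pMN (SD, n = 11 each), then 270 ± 131 in p2 and 442 ± 164 in p0-1 (SD, n = 12 each), the same order as Foxe3 with a smaller range. Sarm1, 1.37 kb from Vtn, had reads in 62 of 65 libraries, and Sebox on the other side in 1. Beside Grrp1, Pdik1l at 20.9 kb had means of 347 in p3, 382 in pMN, 347.5 in p2 and 508 in p0-1, where Grrp1 was nearly missing, and C4H1orf232 at 1.01 kb had more than 3 reads in 8 libraries. Beside Crhbp, Aggf1 was in all 65 libraries and S100z in 0, and beside Rgs8, Npl was in 52 and C230024C17Rik in 3.

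Over the 25 group means of log2(value + 1), the genes most like each of the 6 were ranked by Pearson r as a description. Among the 3 genes most like Vtn were Shh (r = 0.91) and Dbh (0.88), and among the 3 most like Crhbp were Sphkap (0.88) and Ntn1 (0.84). Of these Shh and Ntn1 are genes of the floor plate, and Dbh encodes the enzyme that makes noradrenaline. Among the 3 most like Grrp1 were Gli1 (0.88), a transcription factor and known target of the Shh pathway, and Frem1 (0.85). Rgs8 was most like Prmt8 (0.82), Neurod1 (0.80), a transcription factor of differentiating neurons, and Srrm4os (0.78). Foxe3 was most like Sfpq (0.81), Gm3264 (0.80) and Gm15412 (0.80), and Gbp8 was most like Sfpq (0.89), Cers6 (0.84) and Hnrnph1 (0.83). Sfpq and Hnrnph1 encode widely used RNA-binding proteins, and their means differed little between cell types of days 5 and 6 (Sfpq from 4297 to 6110 normalised reads).

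Among the 6 genes themselves, Foxe3 and Gbp8 had the highest r over the 25 groups (0.84), followed by Vtn and Crhbp (0.82), and Foxe3 and Grrp1 had the lowest (-0.53). Gli1 averaged 982 normalised reads in p3, 1406 in pMN, 678 in p2 and 100 in p0-1 on days 5 and 6, the same order of cell types as Grrp1. Of the 18 most alike genes, 13 stayed with a pseudocount of 10 and 6 when the 65 libraries were used in place of the group means. Shh stayed with Vtn and Gli1 with Grrp1 in both. Group means of the same cell type share their sort and share neighbouring days, so the 25 points are not independent.

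**Figure D5:**
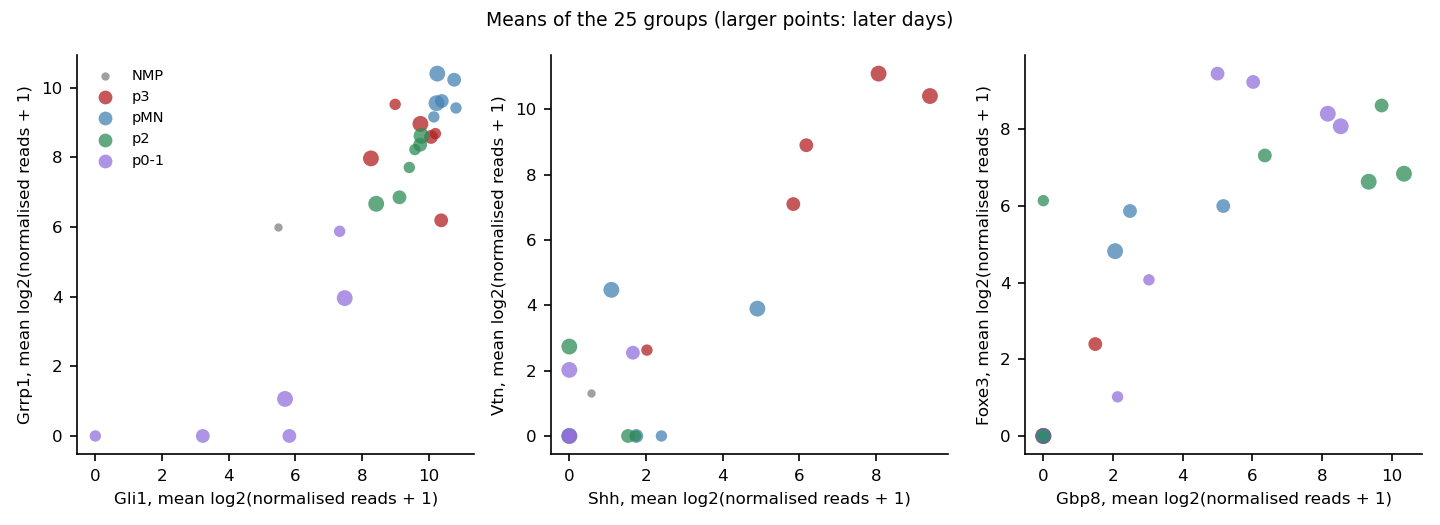
Means of log2(normalised reads + 1) of the 25 groups for Grrp1 against Gli1, Vtn against Shh and Foxe3 against Gbp8, coloured by cell type, with larger points for later days. Grrp1 and Gli1 (r = 0.88) are low together in p0-1, and Vtn and Shh (r = 0.91) are high together in p3. Foxe3 and Gbp8 (r = 0.84) are both low in p3 and in most groups before day 5. Foxe3 is at 6.14 and Gbp8 at 0 in p2 at 10 nM on day 4, a group of 1 library.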

How the data were processed

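RNA from sorted, fixed HM1 cells was sequenced in 65 libraries from amplified full-length cDNA. The authors aligned reads with STAR to mm10 plus spike-in sequences, counted them per gene with featureCounts without duplicates (strand use is not stated), removed libraries on quality and deposited a gene-level signal, namely counts divided by 1 size factor per library. Those counts were recovered here: 100.0% of the 834400 values above 0 were whole multiples, within 0.01 reads, of what 1 read is worth (0.717 to 1.359). No molecular identifiers are stated, so reads of amplified cDNA can vary by more than counting error, and errors were taken from the spread between libraries.

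The 6 genes and all gene lists were chosen with earlier results of these data known. limma 3.58.1 with an intensity trend was fitted to log2(value + 1) with 1 mean for each of 25 groups, over 13964 genes averaging 10 or more, with Benjamini-Hochberg adjustment (called at adjusted p below 0.01 and more than 2-fold). A gene entered a comparison where its mean was at least 10 in 1 of the sets compared. The pseudocount makes log2 changes of low genes too small. Exact permutation tests were added after seeing the data. Alternatives used edgeR 4.0.16 and DESeq2 1.42.0 on recovered reads, other filters, scalings, pseudocounts, weights, a replicate block and omission of each library. Other genes named are those called in a list with the largest changes, relatives of the 6 genes in the same list, the 3 genes most like each, the nearest genes and markers set beside a result. A few of these genes are not reported here, and 1 was taken out of the floor plate markers after the data were seen. Scripts were tested on simulated data, where DESeq2 called many unchanged genes and limma and edgeR few.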

Additional observations from a re-analysis of the deposited data

Results flagged for a closer look

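In each set of 4 to 10 libraries of a cell type and day, 1 library was marked when its gap to the nearest other was large against the range of the set by Dixon's criterion. Chance alone would mark about 1 of 20 sets of continuous values, but a set with all other libraries at 0 is always marked, so that rate cannot be applied to the count given here. Of 43 sets with a mean of at least 10 normalised reads, 10 had such a library, and each set joins 2 SAG concentrations. In 8 of them all other libraries of the set were at 0. These were Vtn in p3 at 500 nM on day 4 (replicate 3, 235 normalised reads), in p2 at 100 nM on day 6 (replicate 1, 295), in p0-1 at 10 nM on day 5 (replicate 2, 199) and in p0-1 at 10 nM on day 6 (replicate 3, 66), Crhbp in p2 at 100 nM on day 6 (replicate 2, 128), Rgs8 in p3 at 500 nM on day 5 (replicate 1, 75.3), Foxe3 in p3 at 100 nM on day 5 (replicate 2, 145) and Gbp8 in pMN at 100 nM on day 6 (replicate 2, 71.3). Foxe3 in p0-1 at 0 nM on day 4 had 87.7 in replicate 3 with the others at 7.35 or less, and Grrp1 in pMN at 500 nM on day 4 had 821 in replicate 2 with the others between 553 and 591. The library with Foxe3 in p3 is the one with almost no Shh. The 10 libraries had from 10571 to 13985 genes detected, and what set them apart was not tested.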

How the results depend on the processing

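Across the alternatives the highest cell type of each of the 6 genes did not move, and the count of libraries that lacked a gene stayed between 7 and 10 (10 as reported, 7 without day 5 p3 replicate 2 of 100 nM). Of 512 values for 26 pairs of a gene and a comparison with an unadjusted or exact p below 0.05, 485 kept direction and side of the threshold, 21 newly passed it, 3 lost it, 3 moved and 0 reversed. DESeq2, which called many unchanged genes in simulated counts, called more throughout: 4 pairs for SAG, 5 for the day, 11 on day 4, 5 against NMP and 51 in the family and pathway lists. Against NMP, quantile normalisation called 2 pairs and array weights 4. Leaving out 1 library gave 0 to 1 calls for the day (1, Crhbp in p3, log2 change 5.90, without day 5 p3 replicate 1 of 100 nM) and 1 to 2 on day 4. In the lists, 14 pairs as reported, 9 were called with a mean of at least 100, 8 with the compared groups alone, 8 with edgeR and 7 to 15 without 1 library (7 without day 6 p3 replicate 3 of 500 nM). The cause of these moves was not tested. Foxe3 on day 4 in p2 rested on 1 library, and its differences were 0.000 without replicate 3 at 10 nM. Quantile normalisation shifted the median of all genes by up to 0.777 on the log2 scale (p3 of day 4 against NMP) and by -0.378 between SAG concentrations in p3. Replicate numbers were not used to pair libraries in the main fit. To look for shared cultures, the log2 values of each library were taken as deviations from its group mean. These deviations were correlated between libraries of different groups, for groups of 3 libraries on days 5 and 6. Correlations of the deviations for libraries with the same number were low (-0.0415 to 0.122, median 0.0271), with 5 of 273 pairs above 0.1. They were somewhat higher than those of libraries with different numbers (median -0.0147, 0 of 546 pairs above 0.1). The authors describe sorting several cell types from 1 dish, so libraries with the same number may share a culture and may not be independent. With the replicate number as a block the calls were 0 for SAG, 0 for the day, 2 on day 4, 0 against NMP and 16 in the lists.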

Other observations

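Some values of the 6 genes come from sets of few libraries. On day 4 Rgs8 had 30.6 and 21.0 normalised reads in both p0-1 libraries at 0 nM SAG and 0 in the 3 at 10 nM, and single libraries of p2 (68.4) and pMN (37.4) had it as well. The NMP libraries had 0, 14.6 and 1.36 of Rgs8 and 0, 14.6 and 0 of Vtn, and the same replicate held both values of 14.6. On day 6 the pMN libraries of both SAG concentrations did not overlap for Rgs8, with 142.5, 61.2 and 127.5 at 100 nM and 383 and 608 at 500 nM. In the same libraries Foxe3 had 10.7, 65.2 and 28.1 at 100 nM and 0 and 0 at 500 nM. On day 5 neither gene was separated by SAG in pMN (Rgs8 144, 397 and 224 against 179.6, 452.5 and 105). The difference of the SAG effect between the days in pMN was -4.95 on the log2 scale for Foxe3 (SE 1.97, limma adjusted p = 1) and 2.40 for Rgs8 (SE 2.62, limma adjusted p = 1), so neither passed.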
